A study of Saccharomyces cerevisiae with 6 samples.

Results

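The genes described here are 44 nuclear genes of budding yeast that encode enzymes of the late tricarboxylic acid (TCA) cycle and subunits of the mitochondrial respiratory complexes and ATP synthase. They were chosen by name from a list of subunits, with earlier results of these data known, and each had exactly 1 probe set among the probe sets of the 5449 S. cerevisiae genes tested. They comprised 6 TCA enzymes (KGD1, KGD2, LSC1, LSC2, FUM1 and MDH1), 4 subunits of complex II, 11 genes of complex III and cytochrome c, 9 of complex IV, 12 of ATP synthase and 2 NADH dehydrogenases. All 44 read above background on every array.

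The late TCA cycle oxidises alpha-ketoglutarate to oxaloacetate in the mitochondrial matrix and hands its electrons to NADH and, through succinate dehydrogenase, to ubiquinone. Budding yeast has no proton-pumping complex I, and single-subunit NADH dehydrogenases feed ubiquinone in its place. Electrons then pass through complex III, cytochrome c and complex IV to oxygen, and the proton gradient drives ATP synthase. Glucose represses most of these genes and the Hap complex, whose activating subunit is Hap4, raises them when glucose runs low or respiration is needed.

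RNA was measured on 6 one-colour arrays. On 3 arrays the RNA came from a strain described as a homozygous diploid of the filamentous Σ1278b background without PUN1, which encodes a plasma membrane protein, and on 3 it came from a wild-type diploid of that background. Both strains had been moved from rich medium to low-nitrogen medium, which still held glucose, for 6 h, and each array is labelled as a biological replicate. The sources used here do not say how many independent deletion clones were grown. Values are log2 probe set signals, differences are deletion minus wild type, and "higher" or "lower" is used for an adjusted p under 0.05 in limma, adjusted over all 5498 tested probe sets.

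PUN1 read 8.33, 4.83 and 4.93 on deletion replicates 1, 2 and 3, against 13.35, 13.50 and 13.55 on wild-type replicates 1, 2 and 3, and was below background on deletion replicates 2 and 3 only. The mating-type markers differed from the label of a diploid on all 3 deletion arrays. HMRA1 encodes the a1 partner of the repressor found in a/alpha diploids. It was above background on every wild-type array and on no deletion array, where it was lower by at least 10.7-fold. All 5 alpha-cell markers were higher there, with MF(ALPHA)1 7.93 log2 units higher, and none of the 7 a-cell markers passed the test (2 had an unadjusted p under 0.05). With the replicate number as a block, the a-cell marker AGA2 passed, with a difference of -0.32 (adjusted p = 0.0491). No comparison without these 3 arrays exists, so in every result below the loss of PUN1 cannot be told apart from the mating-type difference.

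Of the 44 genes, 13 were higher in the deletion arrays and none was lower (limma; 1 was lower at an unadjusted p under 0.05). The share that was higher, 29.5%, compares with 15.8% of all tested probe sets, and with 10.6% of the 1398 probe sets whose mean exceeded 12 (log2), a level that 41 of the 44 genes exceeded. The share of all tested probe sets that was lower was 9.82%. A positive fitted difference was found for 39 of the 44 genes, against 54.8% of all tested probe sets. The 3 deletion arrays lay above all 3 wild-type arrays for 26 of the 44 genes, or 59.1%, against 26.7% of all tested probe sets, and below them for 1 gene, against 18.1% of all tested probe sets. The median difference was 0.11 (log2) over the 44 genes and 0.02 over all tested probe sets. In bulk RNA of a culture, a change in the share of cells with a transcript and a change in its amount per cell cannot be told apart.

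The changes were small. The 13 higher genes differed by between 0.14 (COX5A) and 0.36 (SDH3), or 1.1-fold to 1.28-fold, while the median absolute difference of all called probe sets was 0.31 and 40.1% of the called probe sets differed by more than SDH3. The genes had a median SE of 0.05 (log2), against 0.06 for all tested probe sets. Their highest value, 14.49, lay near the array maxima of 15.11 to 15.15, and whether signals this bright respond in proportion to RNA was not tested.

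The count depended on the arrays used, on scaling and on pairing. With the replicate number as a block, 14 genes were higher and 2 (MDH1 and CYC7) lower, against 956 and 604 of all tested probe sets. Without 1 deletion array at a time, replicates 1, 2 and 3 in turn, 17, 5 and 6 genes were higher. The shares of all tested probe sets that were higher in these fits were 15.9%, 9.22% and 9.73%. Without wild-type replicate 1, 2 or 3, 9, 8 and 10 genes were higher, against 14%, 11.3% and 11.8% of all tested probe sets. After median centring of the arrays 9 were higher and 1 lower, and after quantile normalization 14 and 1; over all tested probe sets the split of 868 higher and 540 lower became 702 and 711 after centring and 700 and 760 after quantile normalization. The 3 arrays of high 25S ribosomal RNA signal were deletion replicates 2 and 3 and wild-type replicate 1. Leaving them out keeps 1 deletion array, so no calls are counted here. In that fit the 13 genes higher with all arrays differed by between 0.105 (COX5A) and 0.34 (SDH3). MDH1, CYC7 and COX5B differed by -0.30, -0.88 and -0.35. With all 10928 probe sets tested, the 6 genes LSC1, SDH2, SDH3, COX13, ATP15 and ATP16 were higher, against 603 (5.52%) of those probe sets.

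**Figure D1:**
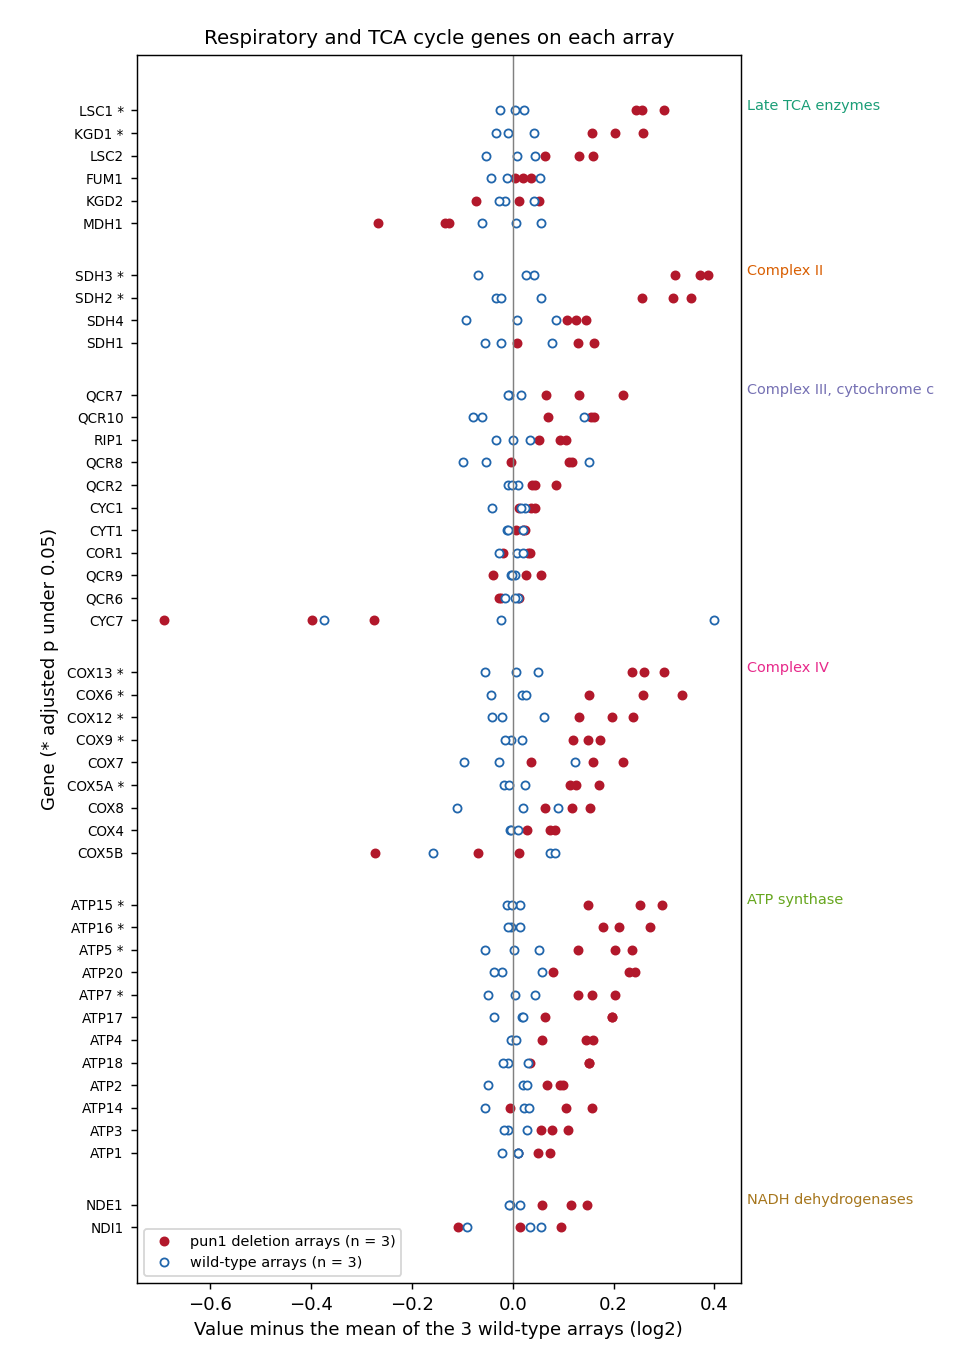
Each row is 1 gene, and each point is the value on 1 array minus the mean of the 3 wild-type arrays (log2); filled points are the 3 deletion arrays and open points the 3 wild-type arrays. An asterisk marks the 13 genes with an adjusted p under 0.05, in each of which every filled point lies right of every open one. The points of CYC7 spread most widely and those of MDH1 show the filled points on the left.

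Among the late TCA enzymes, 2 of 6 were higher, none lower, and 4 missed the threshold (1 of them, MDH1, had a negative difference at an unadjusted p under 0.05). Beside this count and those of the complexes below stand the shares of all tested probe sets, 15.8% higher and 9.82% lower. LSC1 encodes the alpha subunit of succinyl-CoA ligase, the enzyme that makes ATP from succinyl-CoA. It read 13.09, 13.11 and 13.15 on deletion replicates 1, 2 and 3 and 12.85, 12.87 and 12.82 on wild-type replicates 1, 2 and 3. All deletion arrays lay above all wild-type arrays, and the difference was 0.27 (SE 0.04, adjusted p = 0.00348). KGD1, the dehydrogenase component of the alpha-ketoglutarate dehydrogenase complex, read 12.38, 12.43 and 12.33 in the deletion arrays and 12.16, 12.21 and 12.14 in the wild-type arrays. Its groups did not overlap either, with a difference of 0.21 (SE 0.04, adjusted p = 0.0167). The KGD1 call was lost without deletion replicate 2 or wild-type replicate 3 (adjusted p = 0.0726 and 0.0522).

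The partner subunits of both enzymes did not pass. LSC2, the beta subunit of succinyl-CoA ligase, differed by 0.12 (95% interval 0.01 to 0.23, adjusted p = 0.104), with all deletion arrays above all wild-type arrays. KGD2, the succinyltransferase component, differed by -0.003 (interval -0.12 to 0.11). Whether LSC1 differed more than LSC2, or KGD1 more than KGD2, was not tested. Fumarase, encoded by FUM1, differed by 0.02 (interval -0.08 to 0.12). MDH1, the mitochondrial malate dehydrogenase that closes the cycle, was the 1 gene of the 44 with every deletion array below every wild-type array, at 13.10, 13.24 and 13.24 in the deletion arrays and 13.31, 13.43 and 13.38 in the wild-type arrays. It differed by -0.18 (interval -0.31 to -0.04) and did not pass (adjusted p = 0.0585), but passed with the replicate number as a block (adjusted p = 0.0297) and after median centring (adjusted p = 0.0344).

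Complex II, succinate dehydrogenase, joins the cycle to the chain, and 2 of its 4 subunits were higher, with a median difference of 0.22. SDH3, a membrane anchor of the complex, read 12.90, 12.97 and 12.95 in the deletion arrays and 12.62, 12.61 and 12.51 in the wild-type arrays. The gap between the groups exceeded the range within either, and the difference of 0.36 (SE 0.05, adjusted p = 0.00224) was the largest of the 13 calls and the single one kept under all 14 alternative settings. SDH2, the iron-sulphur subunit, read 13.27, 13.37 and 13.33 in the deletion arrays and 12.98, 13.07 and 12.99 in the wild-type arrays, a difference of 0.31 (SE 0.05, adjusted p = 0.00392) without overlap. SDH4, the other anchor, differed by 0.13 (interval -0.0004 to 0.25) and the flavoprotein SDH1 by 0.10 (interval -0.04 to 0.24), and neither passed (adjusted p = 0.129 and 0.252). SDH3, SDH4 and SDH1 have relatives elsewhere in the genome, and signal shared with a relative is uncertain.

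The 2 NADH dehydrogenases did not pass (1 had an unadjusted p under 0.05). NDE1, which faces the intermembrane space and oxidises cytosolic NADH, read 13.56, 13.50 and 13.59 in the deletion arrays and 13.44, 13.46 and 13.44 in the wild-type arrays. Its groups did not overlap, but the difference of 0.11 (interval 0.01 to 0.20) missed the threshold (adjusted p = 0.095). NDI1, which faces the matrix, had a difference of 0.0004 with an interval of -0.16 to 0.16.

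Of the genes of complex III and cytochrome c, 0 of 11 passed (limma; 1 was higher and none lower at an unadjusted p under 0.05), and the median difference was 0.03. The core subunits COR1 and QCR2 differed by 0.02 (interval -0.08 to 0.11) and 0.06 (interval -0.03 to 0.14). CYT1, cytochrome c1, read 13.27, 13.28 and 13.29 in the deletion arrays and 13.25, 13.28 and 13.25 in the wild-type arrays, with an interval of -0.07 to 0.10. For these 3 genes the intervals exclude a difference as large as the 0.21 of KGD1 in either direction. QCR6, QCR8, QCR9 and QCR10, small subunits of the complex, differed by between -0.01 and 0.13 and their groups overlapped. QCR7, another small subunit, came nearest to a call, at 14.01, 14.08 and 14.16 in the deletion arrays and 13.94, 13.94 and 13.96 in the wild-type arrays. Its groups did not overlap, and its difference of 0.14 had an adjusted p of 0.0782, which became 0.0413 without deletion replicate 1. QCR10 likewise passed only without wild-type replicate 3 among the single arrays left out (adjusted p = 0.0423, difference 0.20, against 0.13 and an adjusted p of 0.21 with all arrays).

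RIP1, the Rieske iron-sulphur protein of complex III, is also carried on the array as 3 control probe sets along its transcript, which gives a second reading of the same RNA. Its own probe set read 13.59, 13.65 and 13.63 in the deletion arrays and 13.54, 13.57 and 13.51 in the wild-type arrays, a difference of 0.08 (adjusted p = 0.166). The 3′, middle and 5′ control probe sets differed by 0.13, 0.09 and 0.06. The 3′ and 5′ sets separated the groups without overlap and the middle set did not. None passed when all probe sets of the array were tested (adjusted p = 0.182, 0.353 and 0.508). In that same fit RIP1's own probe set had an adjusted p of 0.3585. All 4 readings were thus positive and none was a call.

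Cytochrome c has an aerobic form, CYC1, and a form favoured at low oxygen, CYC7. CYC1 read 13.94, 13.96 and 13.97 in the deletion arrays and 13.88, 13.95 and 13.94 in the wild-type arrays, with an interval of -0.06 to 0.12. CYC7 read 9.70, 9.99 and 10.11 in the deletion arrays and 10.01, 10.36 and 10.79 in the wild-type arrays. Each CYC7 value of the deletion lay below the wild-type value of the same replicate number, although the groups overlapped. The difference was -0.46 (interval -0.93 to 0.02, adjusted p = 0.14), and it passed with the replicate number as a block (adjusted p = 0.0157) and without wild-type replicate 1 (difference -0.64, adjusted p = 0.0337). Leaving out wild-type replicate 3 instead gave -0.26 (adjusted p = 0.301).

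Complex IV, cytochrome c oxidase, had 5 of 9 genes higher, none lower (0 at an unadjusted p under 0.05 too) and 4 that did not pass. COX13, subunit VIa, read 13.58, 13.55 and 13.62 in the deletion arrays and 13.26, 13.32 and 13.37 in the wild-type arrays. It had the largest difference of the complex, 0.27 (SE 0.04, adjusted p = 0.00626), and kept its call whichever single array was left out. COX6, subunit VI, read 13.24, 13.35 and 13.43 in the deletion arrays and 13.05, 13.11 and 13.12 in the wild-type arrays, a difference of 0.25 (SE 0.06, adjusted p = 0.0197). COX12, subunit VIb, read 13.66, 13.73 and 13.77 in the deletion arrays and 13.49, 13.51 and 13.60 in the wild-type arrays, a difference of 0.19 (SE 0.05, adjusted p = 0.0312). In none of these 3 genes did the groups overlap. COX9, subunit VIIa, differed by 0.15 (SE 0.04, adjusted p = 0.0287). Single arrays decided 3 of these calls. COX6 lost its call without deletion replicate 2 or 3 or wild-type replicate 2 (adjusted p = 0.055 to 0.0729). COX12 lost it without deletion replicate 2 or 3 or wild-type replicate 1 or 2 (adjusted p = 0.0747 to 0.105), and COX9 without deletion replicate 2 or 3 or wild-type replicate 2 or 3 (adjusted p = 0.0729 to 0.105). Median centring also ended the calls of COX9 and COX12.

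COX5A and COX5B encode alternative forms of subunit V, used in air and at low oxygen. COX5A read 13.65, 13.67 and 13.71 in the deletion arrays and 13.52, 13.56 and 13.53 in the wild-type arrays. The groups did not overlap, and the difference of 0.14 was called (SE 0.04, adjusted p = 0.0407), but the call was lost without any 1 of the 6 arrays (adjusted p = 0.0535 to 0.132), with the replicate block (adjusted p = 0.0591) and after median centring (adjusted p = 0.0806). COX5B read 7.94, 8.22 and 8.14 in the deletion arrays and 8.05, 8.28 and 8.29 in the wild-type arrays. These groups overlapped and the difference of -0.11 (interval -0.34 to 0.12) did not pass; after quantile normalization it was -0.29 and passed (adjusted p = 0.0282). The remaining genes COX4, COX7 and COX8 differed by 0.06, 0.14 and 0.11 and did not pass.

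ATP synthase makes ATP at its catalytic head while a ring in the membrane turns its central stalk. All 12 genes had positive differences, 10 had every deletion array above every wild-type array, and 4 were higher, with a median difference of 0.14 and none lower (0 at an unadjusted p under 0.05 too). The shares of all tested probe sets with a positive difference, without overlap and higher, and called higher were 54.8%, 26.7% and 15.8%. ATP15 and ATP16 encode the epsilon and delta subunits of the central stalk. ATP15 read 13.42, 13.57 and 13.53 in the deletion arrays and 13.26, 13.29 and 13.27 in the wild-type arrays, a difference of 0.23 (SE 0.05, adjusted p = 0.0147). ATP16 read 13.49, 13.59 and 13.52 in the deletion arrays and 13.31, 13.30 and 13.33 in the wild-type arrays, a difference of 0.22 (SE 0.04, adjusted p = 0.00948). For both, the wild-type arrays lay close together and every deletion array above them. ATP5, the oligomycin-sensitivity protein at the top of the peripheral stalk, differed by 0.19 (SE 0.05, adjusted p = 0.03), and ATP7, subunit d of the same stalk, by 0.16 (SE 0.04, adjusted p = 0.0344). ATP16 kept its call whichever array was left out. ATP15 lost it without deletion replicate 2 or 3 (adjusted p = 0.0569 to 0.0619), ATP5 without those arrays or wild-type replicate 1 or 3 (adjusted p = 0.0592 to 0.105), and ATP7 without those deletion arrays or wild-type replicate 1 or 2 (adjusted p = 0.0827 to 0.131). After median centring the ATP7 call was lost as well.

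The head subunits and the gamma subunit did not pass. ATP1, the alpha subunit of the head, differed by 0.04 (interval -0.05 to 0.14), ATP2, the catalytic beta subunit, by 0.09 (interval -0.01 to 0.18) and ATP3, the gamma subunit of the central stalk, by 0.08 (interval -0.01 to 0.17). The membrane and peripheral stalk subunits ATP4, ATP14, ATP17, ATP18 and ATP20 differed by between 0.09 and 0.18. ATP20, subunit g, with 13.23, 13.38 and 13.39 in the deletion arrays and 13.13, 13.11 and 13.21 in the wild-type arrays, had an adjusted p of 0.0575, and ATP17, subunit f, one of 0.0674. With the replicate number as a block both passed (adjusted p = 0.0448 and 0.0464). Without deletion replicate 1, ATP4, ATP17, ATP18 and ATP20 passed, at differences of 0.15, 0.20, 0.15 and 0.24 (adjusted p = 0.0195 to 0.0468). Whether the complexes differed from one another in their response was not tested.

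**Figure D2:**
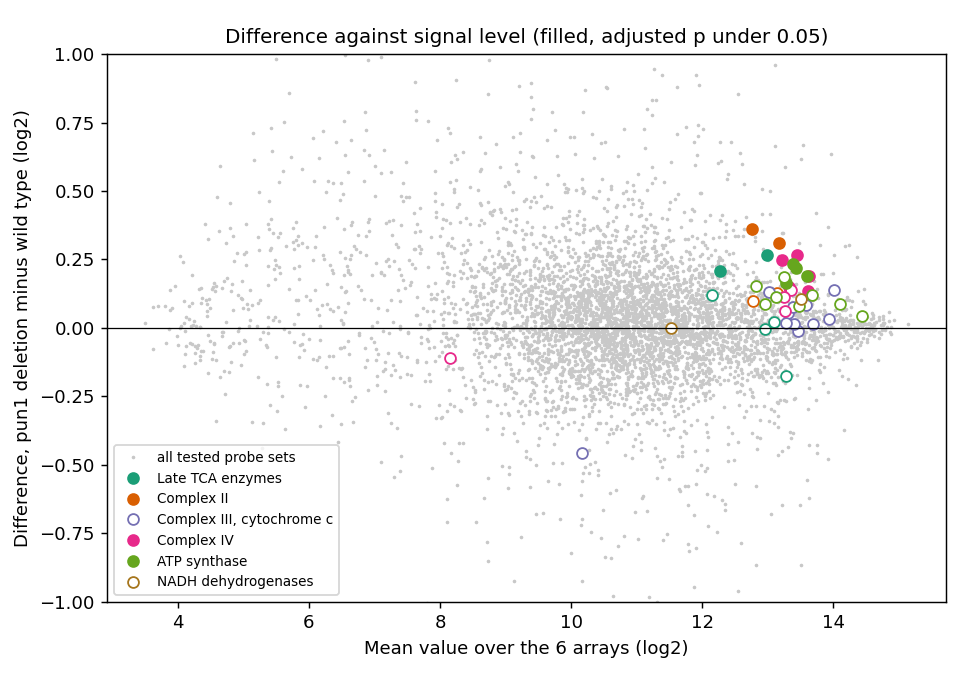
The fitted difference (deletion minus wild type, log2) is plotted against the mean over the 6 arrays (log2) for all tested probe sets (grey) and the 44 genes (coloured by complex, filled where the adjusted p was under 0.05); 119 probe sets with differences beyond 1 in either direction lie outside the axes. Most of the coloured points sit at means above 12 and above the zero line, with CYC7 the lowest at -0.46.

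The replicates within the deletion group were not alike for these genes. Deletion replicate 1 had the lowest value of the 3 deletion arrays for 41 of the 44 genes, or 93.2%, against 44.2% of all tested probe sets and 45.5% of the probe sets with a mean above 12. Relative to the mean of each gene over the 6 arrays, the median of the 44 genes was 0.002, 0.08 and 0.08 on deletion replicates 1, 2 and 3 and -0.07, -0.04 and -0.05 on wild-type replicates 1, 2 and 3. Deletion replicate 1 therefore lay between the other deletion arrays and the wild-type arrays. Over all tested probe sets the same medians ran from -0.02 to 0.02. Among the wild-type arrays, replicate 1 was lowest for 21 of the 44 genes, replicate 3 for 15 and replicate 2 for 8 (47.7%, 34.1% and 18.2%). Over all tested probe sets the order was the same and the shares were near these, at 43.4%, 36.1% and 20.5%.

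**Figure D3:**
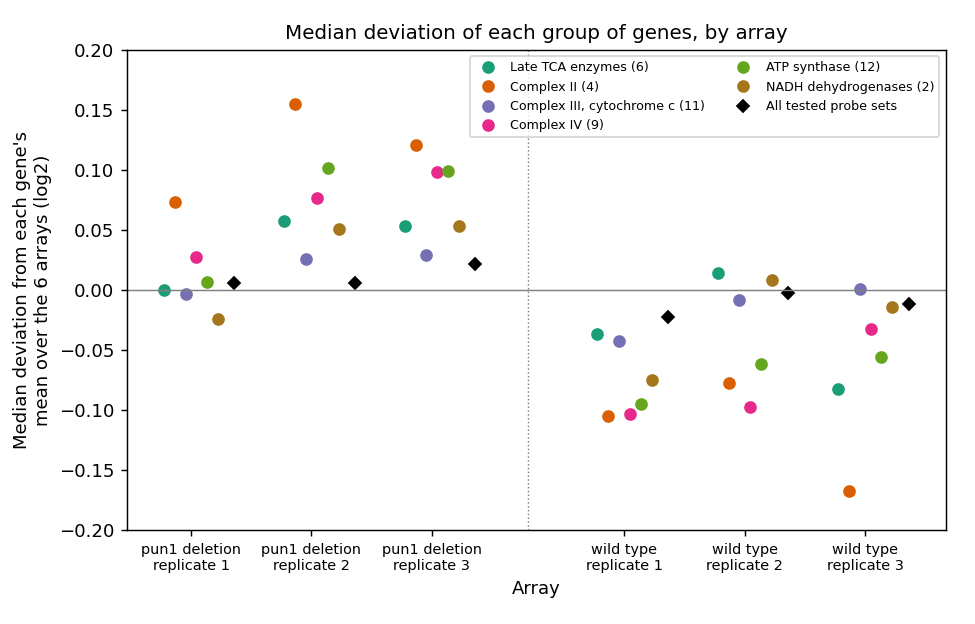
For each array, points give the median over the genes of each complex of the deviation from each gene's mean over the 6 arrays (log2), with the number of genes in brackets; diamonds give the median over all tested probe sets. Complex II, complex IV and ATP synthase lie above zero on all 3 deletion arrays and below it on all 3 wild-type arrays, with the smallest deletion values on replicate 1.

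Deletion replicate 1 also had the highest PUN1 value of the 3 deletion arrays, 8.33 against 4.83 and 4.93. The 25S ribosomal RNA control read 9.07, 11.28 and 12.53 on deletion replicates 1, 2 and 3, against 12.81, 9.06 and 8.85 on wild-type replicates 1, 2 and 3 (exact permutation test of the groups, two-sided p = 0.8, the smallest possible being 0.1). In the deletion group the array with the lowest 25S signal was lowest for 93.2% of the 44 genes, against 44.2% of all tested probe sets. In the wild-type group the array with the highest 25S signal was lowest for 47.7% of the 44 genes, near its 43.4% of all tested probe sets. The 3′ minus 5′ signal of 7 control genes was 0.92, 0.96 and 1.02 in the deletion arrays and 0.98, 0.96 and 0.88 in the wild-type arrays (exact permutation test, two-sided p = 0.6). The part of these measures in the differences between arrays was not tested.

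Genes around these enzymes were taken from lists of the same pathways. In the early TCA cycle and pyruvate dehydrogenase list, 3 of 14 measured genes were lower, 11 missed the threshold and none was higher (1 at an unadjusted p under 0.05). The shares of all tested probe sets were 9.82% lower and 15.8% higher. The lower genes stand between citrate and alpha-ketoglutarate. ACO1, aconitase, read 12.85, 12.96 and 12.94 in the deletion arrays and 13.25, 13.47 and 13.42 in the wild-type arrays, a difference of -0.46 without overlap (adjusted p = 0.00373). IDH2 and IDH1, the subunits of NAD-dependent isocitrate dehydrogenase, differed by -0.42 and -0.28 (adjusted p = 0.0186 and 0.0483). The IDH2 call was lost without deletion replicate 3 or wild-type replicate 2 or 3 (adjusted p = 0.0523 to 0.0641), and the IDH1 call on leaving out each array but wild-type replicate 1 (adjusted p = 0.101 to 0.125). The median difference was -0.05 in this list and 0.07 in the late TCA enzymes, and the lists were not tested against each other. The early list also holds KGD4 and LPD1, components of the alpha-ketoglutarate dehydrogenase complex, and the pyruvate carriers MPC1, MPC2 and MPC3.

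Over all tested probe sets 25.6% were called in either direction, the share against which the counts of these lists stand. Among assembly factors, for complex II, 3 of 7 measured assembly factors and relatives were higher, 4 missed the threshold and none was lower (1 at an unadjusted p under 0.05). The assembly factors SDH8 and SDH6 differed by 0.26 and 0.43 (adjusted p = 0.00958 and 0.0407), and the SDH6 call held only on leaving out deletion replicate 1 (adjusted p = 0.0557 to 0.13 on leaving out another array). SHH3, a relative of SDH3, was at least 1.05-fold higher; it was above background on 2 of the 3 deletion arrays and on none of the wild-type arrays (adjusted p = 0.00316). For complex III, 1 of 12 was higher, CBS1, an activator of cytochrome b translation, by 0.19 (adjusted p = 0.0186), and 11 missed the threshold, of which 3 had negative differences at an unadjusted p under 0.05. The CBS1 call was lost without deletion replicate 2 or 3 or wild-type replicate 2 (adjusted p = 0.0593 to 0.07).

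For complex IV, 2 of 27 assembly genes were higher and 1 lower, with 24 that missed the threshold. RCF2, which associates with respiratory supercomplexes, was 0.31 higher (adjusted p = 0.0131; 0.0521 without deletion replicate 2), and COX20, a chaperone of a mitochondrially encoded subunit, 0.23 higher (adjusted p = 0.00806). OXA1, the inner membrane insertase, differed by -0.15 (adjusted p = 0.0483), a call lost with the replicate block (adjusted p = 0.0503) and on leaving out each array but wild-type replicate 3 (adjusted p = 0.066 to 0.148).

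For ATP synthase, 3 of 17 further genes, mostly for assembly and regulation, were higher and 3 lower, with 11 that missed the threshold. The list also holds TIM11 and ATP19, which encode subunits e and k of the enzyme. They differed by 0.16 and 0.12 and did not pass (adjusted p = 0.0673 and 0.173). INH1 encodes the inhibitor that stops the enzyme from hydrolysing ATP. It read 12.45, 12.60 and 12.71 in the deletion arrays and 12.01, 12.11 and 11.80 in the wild-type arrays, a difference of 0.61 (SE 0.10, adjusted p = 0.00547). The 12 subunits among the 44 genes had differences of 0.23 at most, and that INH1 differed more was not tested. NCA3 and NCA2, which act on the expression of mitochondrially encoded ATP synthase subunits, were 1.04 and 0.36 higher (adjusted p = 0.000516 and 0.00281). STF2, a protein linked to the inhibitor, differed by -0.48 (adjusted p = 0.00618). FMC1 and ATP12, which help assemble the catalytic head, differed by -0.28 and -0.24 (adjusted p = 0.0296 and 0.0461). FMC1 lost its call without deletion replicate 2 or any wild-type array (adjusted p = 0.0641 to 0.0867). ATP12 lost it on leaving out each array but wild-type replicate 3 (adjusted p = 0.0604 to 0.15) and with the replicate block (adjusted p = 0.0617).

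Among 7 other genes of electron donors and the glycerol phosphate shuttle, 5 were higher and 2 missed the threshold (1 with a negative difference at an unadjusted p under 0.05). CYB2, the lactate dehydrogenase that reduces cytochrome c directly, read 10.89, 10.96 and 11.01 in the deletion arrays and 9.85, 9.93 and 9.94 in the wild-type arrays. The groups lay far apart, with a difference of 1.05 (SE 0.05, adjusted p = 2.42e-05), or 2.07-fold, where the highest among the 44 genes was 0.36. NDE2, the second external NADH dehydrogenase, and GUT2, the mitochondrial glycerol phosphate dehydrogenase, were 0.39 and 0.37 higher (adjusted p = 0.0476 and 0.0232). NDE2 lost its call without any deletion array or without wild-type replicate 1 (adjusted p = 0.0508 to 0.132), and GUT2 without deletion replicate 2 or 3 or wild-type replicate 3 (adjusted p = 0.0674 to 0.083). The median difference of this list was 0.36.

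Of 11 genes for synthesis of coenzyme Q, the electron carrier ubiquinone, 0 passed (limma). At an unadjusted p under 0.05, COQ2 and COQ9 had positive differences (0.13 and 0.15), and COQ1, COQ3 and COQ6 negative ones (-0.15, -0.10 and -0.11). COQ8 had the largest difference of the list, 0.17 (adjusted p = 0.131), and its groups overlapped. Of 8 haem genes 1 was higher, 1 lower, and 6 missed the threshold. HEM1, the first enzyme of haem synthesis, was 0.25 higher (adjusted p = 0.0107). HEM13, an oxygen-requiring enzyme whose gene is induced when oxygen is scarce, read between 11.97 and 12.09 in the deletion arrays and between 12.59 and 12.72 in the wild-type arrays, a difference of -0.64 (adjusted p = 0.000385).

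Of 15 regulators of respiratory genes, 1 was higher, 1 lower and 13 missed the threshold. HAP4, the activating subunit of the Hap complex, read 11.44, 11.32 and 11.28 in the deletion arrays and 11.71, 12.04 and 12.06 in the wild-type arrays. All deletion arrays lay below all wild-type arrays, and the difference was -0.59 (SE 0.10, adjusted p = 0.00715). HAP2, a DNA-binding subunit of the same complex, was 0.28 higher (SE 0.04, adjusted p = 0.00458). Both calls were kept whichever single array was left out, although HAP2 did not pass once the 3 arrays high in 25S signal were left out. HAP4 was thus lower in the same arrays in which 13 of the 44 respiratory and TCA genes were higher.

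In a list of 9 genes drawn up as induced at low oxygen, 1 was higher, 3 lower and 5 missed the threshold. Among those 5, CPR1 was matched to YDR155C, which encodes a cyclophilin, so its place in this list is doubtful. The lower genes were AAC3, a form of the ADP/ATP carrier, at -0.71 (adjusted p = 0.00377), HEM13 at -0.64, and AUS1, a sterol importer, at -0.23 (adjusted p = 0.0362). AUS1 lost its call without deletion replicate 2 or 3 or wild-type replicate 1 or 2 (adjusted p = 0.0801 to 0.125). TIR1, a cell wall mannoprotein, was 1.04 higher (adjusted p = 0.00481). The forms of the ADP/ATP carrier thus ran in opposite directions, since AAC1 read 10.62, 10.73 and 11.01 in the deletion arrays and 9.97, 10.22 and 10.15 in the wild-type arrays, a difference of 0.68 (adjusted p = 0.00581). PET9, the main form of the carrier, differed by -0.03 (adjusted p = 0.664) and the phosphate carrier MIR1 by 0.12 (adjusted p = 0.0866). Leaving out the 3 arrays high in 25S signal also ended the calls of SDH6, SDH8, CBS1, COX20, OXA1, ATP12, INH1, NDE2, GUT2 and AUS1. It likewise ended the calls of DLD1 and DLD2, the remaining higher genes of the electron donor list (0.36 and 0.25 higher with all arrays). Quantile normalization ended those of IDH1, SDH6, CBS1 and NDE2, and median centring those of SDH6 and NDE2. With the replicate number as a block, 5 further genes of these lists passed. These were MPC3, PET111, GPD1 and HAP1 with negative differences (adjusted p = 0.00614, 0.038, 0.0473 and 0.0491) and MIG1 with a positive one (adjusted p = 0.0308). The subunits encoded by mitochondrial DNA were not analysed here.

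**Figure D4:**
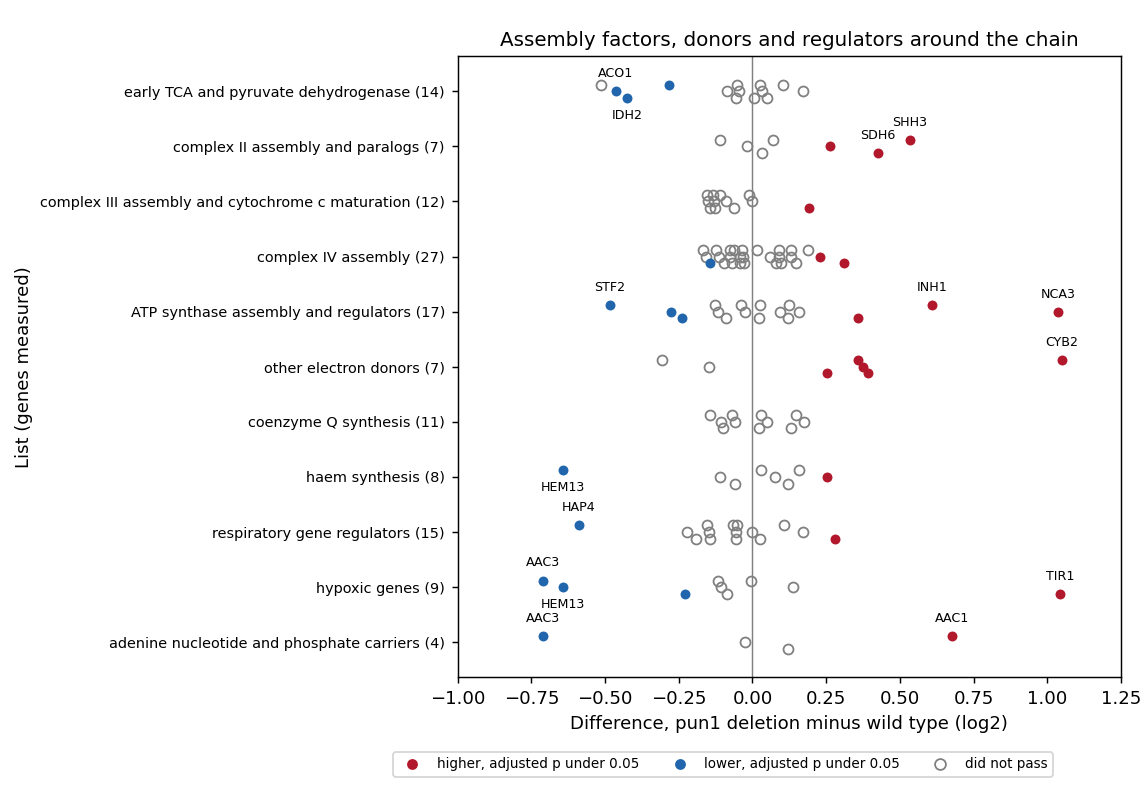
Each point is the difference (deletion minus wild type, log2) of 1 gene of the lists around the chain, with the number of genes measured in brackets; filled points passed the test and open points did not, and called genes beyond 0.4 in either direction are named. NCA3, CYB2 and TIR1 lie furthest right and AAC3 furthest left, and the point of SHH3 is a fitted value that rests on wild-type values at background.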

How the data were processed

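RNA was purified with a poly(A) kit, labelled with biotin and hybridised to 1 array per culture, per the labels' protocols. The deposited values are log2 probe set signals; the submitters' processing notes name GCRMA, a background and summary method that uses probe sequence, GCOS 1.1 and limma, with no order of steps. The base of the logarithm is unstated and was read as 2 from how high the values run. There were 0 columns from other samples.

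The platform's annotation supplied gene names, updated by the table of assembly R64, which served for names only. Of 10928 probe sets, 7244 had 1 gene symbol, 1 had several and 3683 had none. The 5498 probe sets of S. cerevisiae genes were tested, two-sided and without covariates, by lmFit and eBayes of limma 3.58.1 (R 4.3.3), and p-values were adjusted over all of them by Benjamini and Hochberg's method; the same code was tested on simulated data with known differences. A probe set counted as above background when it exceeded the 95th percentile of the 1746 S. pombe probe sets on its array, and where a gene did so on no array of a group, its fold is a bound. Intervals are 95% intervals of the fit. With 3 arrays per group, precision is limited by their number. The members and lists were chosen with earlier results of these data known, so no gene list was tested as a set. The genes named are all 44 members, PUN1 and mating-type markers. Up to 3 passing genes in each direction of each surrounding list are named too, or 2 where none passed. COQ1, COQ2, COQ3, COQ6, PET9, MIR1, DLD1, DLD2 and the genes that passed only with the block were added after their values were seen. So was the limit of 12 on brightness. KGD4, LPD1, MPC1, MPC2, TIM11, ATP19 and CPR1 are named to say what the lists hold. Alternatives were 2 scalings, a filter on dim probe sets, other sets of probe sets, a variance trend, a replicate block and arrays left out.

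Both groups carry replicate numbers 1 to 3. Same-numbered arrays deviated from their group means together, with correlations over probe sets of 0.351 for replicate 1, 0.213 for replicate 2 and 0.112 for replicate 3, all over 0.1. Unlike-numbered pairs ran from -0.283 to 0.183; deletion replicate 3 with wild-type replicate 2 (0.183) and deletion replicate 2 with wild-type replicate 3 (0.161) exceeded the value of replicate 3, so replicates 2 and 3 are not told apart by this check. By the rule on same-numbered arrays the numbers were taken to pair the arrays, and blocked values are given where they change a call; the fit reported has no block. Figures were drawn with matplotlib 3.10.9.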

Additional observations from a re-analysis of the deposited data

How the results depend on the processing

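Of 616 pairs of a gene and an alternative setting (44 genes, 14 settings), 539 kept the side of the threshold, 53 lost a call, 24 gained one and 0 turned a called direction; 24 differences that were called in neither fit changed sign, in 11 genes. The 6 fits that each left out 1 array gave 5 to 17 higher genes, 0 to 1 lower, 1 to 8 lost calls and a median difference of 0.092 to 0.14. Over all tested probe sets they gave 791 to 1424 calls, against 1408 with all arrays. The share of all tested probe sets that was higher ran from 9.22% to 15.9%, against 15.8% with all arrays. On leaving out the 3 arrays high in 25S rRNA, 1 gene was higher, 3 were lower, 12 calls were lost and the median was 0.0515, with 820 calls over all tested probe sets; that fit keeps 1 deletion array, assumed to vary like the wild-type arrays, and it is the one with the lowest values for most of the 44 genes. With all 10928 probe sets tested, 6 genes were higher and 7 calls were lost. Median centring gave 1 lower gene and 4 lost calls, quantile normalization 1 lower gene, an intensity trend with robust eBayes 1 lower gene (and 19 higher), and the replicate block 2 lower genes and 1 lost call. The block gave 14 higher genes and changed no member's call other than those of COX5A, ATP17, ATP20, CYC7 and MDH1. The filter on dim probe sets and the mean over the probe sets of a gene changed none of these counts. Each member has 1 probe set, so a second reading was had for RIP1 only.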
